A study of Mus musculus with 30 samples.

Results

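The genes described here are the Rab GTPases of mouse spinal cord microglia, taken as the rows of a gene expression table whose symbol is Rab followed by a number, with or without a letter and a final digit. The rule found 59 genes among 24888 rows, and none of the 59 symbols was on more than 1 row. RNA was measured in 30 libraries of CD11b-selected cells from the lumbar cord of C57BL/6J mice, made with Smart-Seq2, which amplifies full-length cDNA from small inputs. The control libraries were 2 from naive mice with no treatment or injury and 7 from saline-treated mice, 4 on the fixed (replicates 3 to 6) and 3 on the escalating regimen (replicates 7 to 9). Injured mice had sciatic nerve transection (SNT) and were sampled 1, 2, 4 or 7 days later, chronic constriction injury (CCI) sampled after 2 or 7 days, or spared nerve injury (SNI) sampled after 7 days, with 2 libraries in each of these 7 groups. Mice dosed repeatedly with morphine formed a group on a fixed schedule (4 libraries) and one on an escalating schedule (3 libraries); doses, sex and age are not given in the sources used here, and no injury group has a sham operation among the labels. Nothing in the labels says that libraries of a group came from separate mice, so p-values measure the spread between these samples.

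Rab proteins are small GTPases that switch between an active, membrane-bound form carrying GTP and an inactive form carrying GDP. Exchange factors (GEFs) switch them on, GTPase-activating proteins (GAPs) switch them off, and effectors such as tethers and motor adaptors act on the membranes that an active Rab marks. Microglia, the tissue macrophages of brain and cord, depend on this traffic for phagocytosis, lysosomal degradation, secretion and the recycling of surface receptors.

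The values are FPKM, fragment numbers scaled by transcript length and by library. Levels of different genes are set side by side on this scale. A limit is that libraries still differed in how values moved with transcript length, as described below. Differences are on the log2(FPKM + 1) scale with their standard error, which understates changes of low genes. They were tested with limma across the 11759 genes that had at least 1 FPKM in at least 2 libraries, and a gene was called at a Benjamini-Hochberg adjusted p under 0.05. Of the 59 Rab genes 46 entered the tests and 13 were too low.

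Depth is unknown, because the files give no counts. Genes at 1 FPKM or more numbered 8005 to 10427 per library. A rough floor was taken as the 5th percentile, over genes with any signal, of FPKM times longest transcript length in kilobases. It was 0.118 to 0.135 under fixed morphine and 0.350 to 0.539 in fixed saline. Under escalating morphine it was 0.146 to 0.450, and in escalating saline 0.256 to 0.618. The part of this floor in the values of low members was not tested. All 12 microglial markers were present in every library, with medians over libraries of at least 56.9 FPKM. Neutrophil markers were also present, with summed levels of 1845 to 63215 FPKM per library, and neuronal markers had medians of at most 4.48 FPKM. The libraries also differed in how values moved with transcript length. The rank correlation (Spearman) of a gene's deviation from its mean with its transcript length, over 11318 genes, was 0.157 to 0.461 in 14 libraries and -0.395 to 0.0817 in the other 16. The 14 libraries were both naive libraries, all 6 CCI and SNI libraries, replicate 2 of SNT at 7 days, all 4 of fixed morphine and replicate 1 of escalating morphine. All 7 saline libraries were among the 16. Cst3, a highly expressed microglial gene, was at 10120 to 20827 FPKM in the 14 and at 39503 to 95123 FPKM in the 16.

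The results below turn on 3 members, Rab21, Rab8b and Rab12, which were high or low in the same libraries, so the DNA around their starts is shown first. Rab21, an early endosomal Rab of integrin traffic, lies on the minus strand of mm10 at chr10:115287084-115315594. Rab8b, which serves delivery to the plasma membrane, lies at chr9:66843664-66919687, also on the minus strand. Rab12, which directs receptors from recycling endosomes towards lysosomes, lies at chr17:66494512-66519729, again on the minus strand. The exons of none of the 3 overlap those of another annotated gene. Each promoter below is the RefSeq sequence (build GRCm38.p6) from 250 bases before to 50 bases after the gene's start, on the gene's strand. Capitals mark the GC box GGGCGG and the E-box CACGTG, on either strand.
Rab21 promoter, chr10:115315542-115315841: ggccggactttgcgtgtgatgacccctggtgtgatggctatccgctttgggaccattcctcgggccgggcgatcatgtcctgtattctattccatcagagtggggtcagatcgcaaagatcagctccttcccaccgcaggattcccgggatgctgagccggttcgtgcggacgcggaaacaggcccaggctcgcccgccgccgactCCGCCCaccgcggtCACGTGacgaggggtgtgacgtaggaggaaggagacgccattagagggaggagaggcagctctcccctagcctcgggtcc
Rab8b promoter, chr9:66919656-66919955: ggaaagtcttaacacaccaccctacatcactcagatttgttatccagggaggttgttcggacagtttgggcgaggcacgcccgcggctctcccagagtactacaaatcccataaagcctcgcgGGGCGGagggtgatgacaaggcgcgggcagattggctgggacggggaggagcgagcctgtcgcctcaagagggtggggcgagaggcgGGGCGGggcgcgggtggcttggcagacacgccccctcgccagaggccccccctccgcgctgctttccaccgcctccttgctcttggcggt
Rab12 promoter, chr17:66519621-66519920: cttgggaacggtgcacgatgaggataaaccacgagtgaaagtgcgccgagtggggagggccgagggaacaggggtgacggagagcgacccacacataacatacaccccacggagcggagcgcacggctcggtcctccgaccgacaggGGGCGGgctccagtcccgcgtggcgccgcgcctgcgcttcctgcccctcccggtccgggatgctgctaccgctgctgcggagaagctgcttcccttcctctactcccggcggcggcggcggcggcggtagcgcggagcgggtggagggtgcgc
The GC content was 63.7% for Rab21, 65.3% for Rab8b and 70.7% for Rab12. Rab8b holds 2 GC boxes and Rab21 and Rab12 hold 1 each; Rab21 alone of the 3 holds an E-box. GC boxes were in 35 of 48 promoters of tested Rab genes (39 genes matched by symbol), or 72.9%, against 35.7% of 32851 mouse promoters. The 32851 were not limited to genes tested here, so the 2 sets are not matched for expression. The median GC content was 63.0% in the Rab promoters and 52.7% in all. E-boxes were in 6 of the 48 (12.5%) and in 7.15% of all. Other motifs were searched on both strands, the CRE TGACGTCA, the AP-1 site TGACTCA and the TATA box TATAAA. None of them was found in the 3 promoters. They were in 2.08%, 2.08% and 6.25% of the 48 Rab promoters and in 1.79%, 5.20% and 13.6% of all promoters. None of the 5 motifs is contained in another.

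Across all 30 libraries, Rab genes of every transport step were expressed, and 36 of the 59 had a median of at least 5 FPKM. Rab7, which brings late endosomes to lysosomes, had the highest median, 95.5 FPKM (31.6 to 156). Rab14, which works between the Golgi and endosomes, followed with 85.9 FPKM (30.9 to 120). Rab7 exceeded Rab14 in 18 of 30 libraries, so the order of these neighbours was not steady. Rab14 exceeded Rab31, a Rab5-like protein of trans-Golgi and endosomal traffic, in 30 of 30 libraries. Rab31 had a median of 62.4 FPKM, and Rab11a, the Rab of recycling endosomes, one of 58.1 FPKM. Rab31 lay above Rab11a in 15 of 30 libraries. The ER-to-Golgi Rabs Rab1b, Rab2a and Rab1 had medians of 53.9, 52.7 and 49.6 FPKM and overlapped widely, with Rab1b above Rab2a in 18 libraries and Rab2a above Rab1 in 18. Rab32, a Rab of lysosome-related organelles, had a median of 46.8 FPKM, and the recycling Rab4b and the surface-delivery Rab10 had 38.0 FPKM each.

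By role, 11 of 16 ER and Golgi Rabs and 8 of 9 early endosomal Rabs had a median of at least 5 FPKM. The same held for 8 of 12 recycling and plasma membrane Rabs, 5 of 9 late endosomal and lysosomal Rabs, 2 of 9 Rabs of regulated secretion and 2 of 4 others. Below these, 4 lay between 1 and 5 FPKM and 19 were under 1 FPKM. The 19 were Rab3b, Rab3c, Rab9b, Rab13, Rab15, Rab17, Rab19, Rab23, Rab25, Rab26, Rab27b, Rab30, Rab33a, Rab36, Rab37, Rab38, Rab39b, Rab40b and Rab42. The 4 between were Rab4a, Rab3a, Rab44 and Rab7b. Of the early endosomal Rab5 genes, Rab5a had a median of 26.8 FPKM, Rab5b 21.0 FPKM and Rab5c 12.4 FPKM. Of the secretory Rabs, Rab27a, which docks granules at the plasma membrane, had 13.8 FPKM and the exocytic Rab3d 5.28 FPKM.

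**Figure D1:**
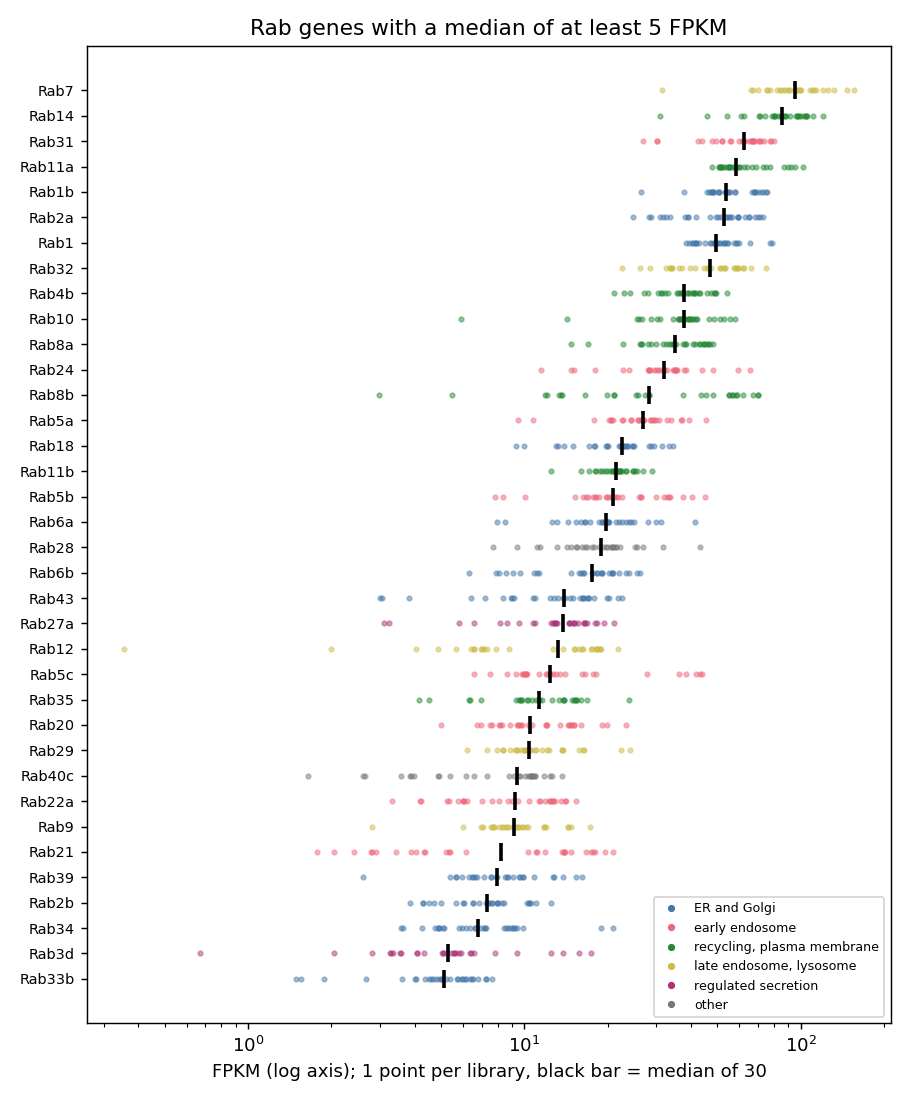
FPKM (log axis) of the 36 Rab genes with a median of at least 5 FPKM, 1 point per library coloured by role, black bars for the median of 30 libraries; values listed at 0 (1 library for Rab39, 2 for Rab2b, 1 for Rab3d) are not drawn. Rab7 is at the top with a median of 95.5 FPKM, and the points of Rab8b, Rab12 and Rab21 spread more widely than those of Rab1 or Rab11b.

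The members differed in how steady they were. Among the 36 with a median of at least 5 FPKM, the smallest standard deviations of log2(FPKM + 1) over 30 libraries were those of Rab11b (0.23), Rab1 (0.26), Rab11a (0.31), Rab1b (0.32) and Rab4b (0.33). The largest were those of Rab8b (1.07), Rab21 (0.97), Rab12 (0.94), Rab3d (0.87) and Rab2b (0.86). Over the 630 pairs of these 36 genes, Spearman's rho across the 30 libraries had a median of 0.16 and ran from -0.59 (Rab27a with Rab9) to 0.89 (Rab31 with Rab8b). Rab12 and Rab21 had a rho of 0.83 and Rab12 and Rab8b 0.80. After removal of each library's trend with transcript length these became 0.76 and 0.66, while Rab31 with Rab8b became 0.35 and Rab27a with Rab9 became -0.10. These correlations describe libraries that share length trend and depth, and carry no test.

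Fixed morphine against fixed saline was the only comparison in which Rab genes passed the test. Called members numbered 6 of 46 (13.04%), while 18.0% of all 11759 tested genes were called there. Higher were 5 members (13.6% of all genes were called higher), namely Rab21, Rab8b, Rab12, Rab4a and Rab14. Lower was 1 member, Rab42 (4.46% of all genes were called lower). The median difference of the 46 was 0.27, with 32 positive, beside a median of 0.22 over all tested genes, so the members as a group sat close to the background.

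Rab21 was at 11.9, 13.7, 17.4 and 19.5 FPKM under fixed morphine and at 2.78, 2.05, 5.38 and 4.34 FPKM in fixed saline. All 4 morphine libraries lay above all 4 saline libraries. The means were 15.6 ± 3.46 and 3.64 ± 1.504 FPKM (SD, n = 4 each), a difference of 1.88 ± 0.42 (limma adjusted p = 0.0122).

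Rab8b was at 54.9, 58.3, 57.0 and 58.9 FPKM under fixed morphine and at 28.3, 21.0, 13.4 and 16.6 FPKM in fixed saline. The groups did not overlap, and the morphine libraries lay within a narrow band. Means were 57.3 ± 1.75 and 19.8 ± 6.49 FPKM (SD, n = 4 each), a difference of 1.54 ± 0.35 (limma adjusted p = 0.0130).

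Rab12 was at 17.6, 16.3, 18.9 and 15.3 FPKM under fixed morphine and at 4.04, 7.86, 8.77 and 6.43 FPKM in fixed saline. The groups did not overlap. The difference was 1.25 ± 0.33 (limma adjusted p = 0.0208).

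Rab4a, of rapid recycling from early endosomes, was at 6.21, 5.07, 6.402 and 5.15 FPKM under fixed morphine. In fixed saline it was at 1.80, 4.71, 1.56 and 2.14 FPKM, with replicate 4 (4.71) just below the lowest morphine library. The difference was 0.99 ± 0.30 (limma adjusted p = 0.0380).

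Rab14 was at 82.7, 103, 106 and 87.0 FPKM under fixed morphine and at 74.4, 71.1, 54.1 and 62.5 FPKM in fixed saline. The groups did not overlap, with a small difference of 0.52 ± 0.16 (limma adjusted p = 0.0402).

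Rab42, a low member, was at 0.938, 0.263, 0.405 and 0.490 FPKM under fixed morphine and at 1.38, 3.39, 0.817 and 1.74 FPKM in fixed saline. The groups overlapped, and its difference was -0.84 ± 0.26 (limma adjusted p = 0.0395).

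These calls rested on few libraries. Only 2 members, Rab21 and Rab8b, were called without saline replicate 6, without morphine replicate 2 or without morphine replicate 3, and 3 were called without morphine replicate 4. The shares of all genes called in these 4 fits were 8.24%, 6.44%, 7.07% and 14.4%. Both Rab21 and Rab8b passed in each of the 8 fits that left out 1 library of these groups, and Rab12 in 5 of them. The 6 differences kept their sign under every scaling tried, but Rab4a was not called with quantile (limma adjusted p = 0.132) or median-ratio scaling, nor Rab14 with median-ratio scaling (limma adjusted p = 0.121). Scaling also moved the balance of calls over all genes, with 1595 of 2119 higher as deposited, 986 of 1812 with quantile, 1039 of 1822 with median-ratio and 3056 of 3349 with common-sum scaling. The median difference of all genes was 0.22, -0.02, 0.04 and 0.53 in that order.

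The fixed comparison lay wholly across the division of libraries by length trend, since all 4 morphine libraries were among the 14 and all 4 saline libraries among the 16. The treatment and that property of the libraries cannot be told apart in it. Rab21 was at 11.02 to 21.0 FPKM in the 14 libraries and at 1.78 to 10.3 FPKM in the 16. Rab8b was at 37.6 to 70.3 and at 2.97 to 28.3 FPKM, and Rab12 at 15.1 to 21.8 and at 0.355 to 13.8 FPKM. These were the 3 of 46 members (6.52%) without overlap between the 14 and the 16, against 522 of 11759 genes (4.44%). The naive libraries, from mice that received no morphine, were at 18.0 and 14.7 FPKM for Rab21, at 70.3 and 48.2 FPKM for Rab8b and at 18.6 and 18.2 FPKM for Rab12. For all 3 genes the naive values were above every saline value and near those of fixed morphine. With naive libraries in place of saline, in an alternative chosen after seeing the data, 0 members and 0% of all genes were called. The differences were -0.08 for Rab21, -0.02 for Rab8b and -0.12 for Rab12. That fit held all 30 libraries with 2 naive ones as control, where the main fit held 14 libraries with 4 of fixed saline. The counts of calls therefore differ in fit and in control number as well as in the kind of control. With each library's trend on transcript length removed, also chosen after seeing the data, 5 members were called, Rab12, Rab13, Rab21, Rab4a and Rab8b, with 11.9% of all genes called. Of these Rab13 was very low, at 0.387 to 0.904 FPKM under fixed morphine and at 0 to 0.363 FPKM in fixed saline.

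**Figure D2:**
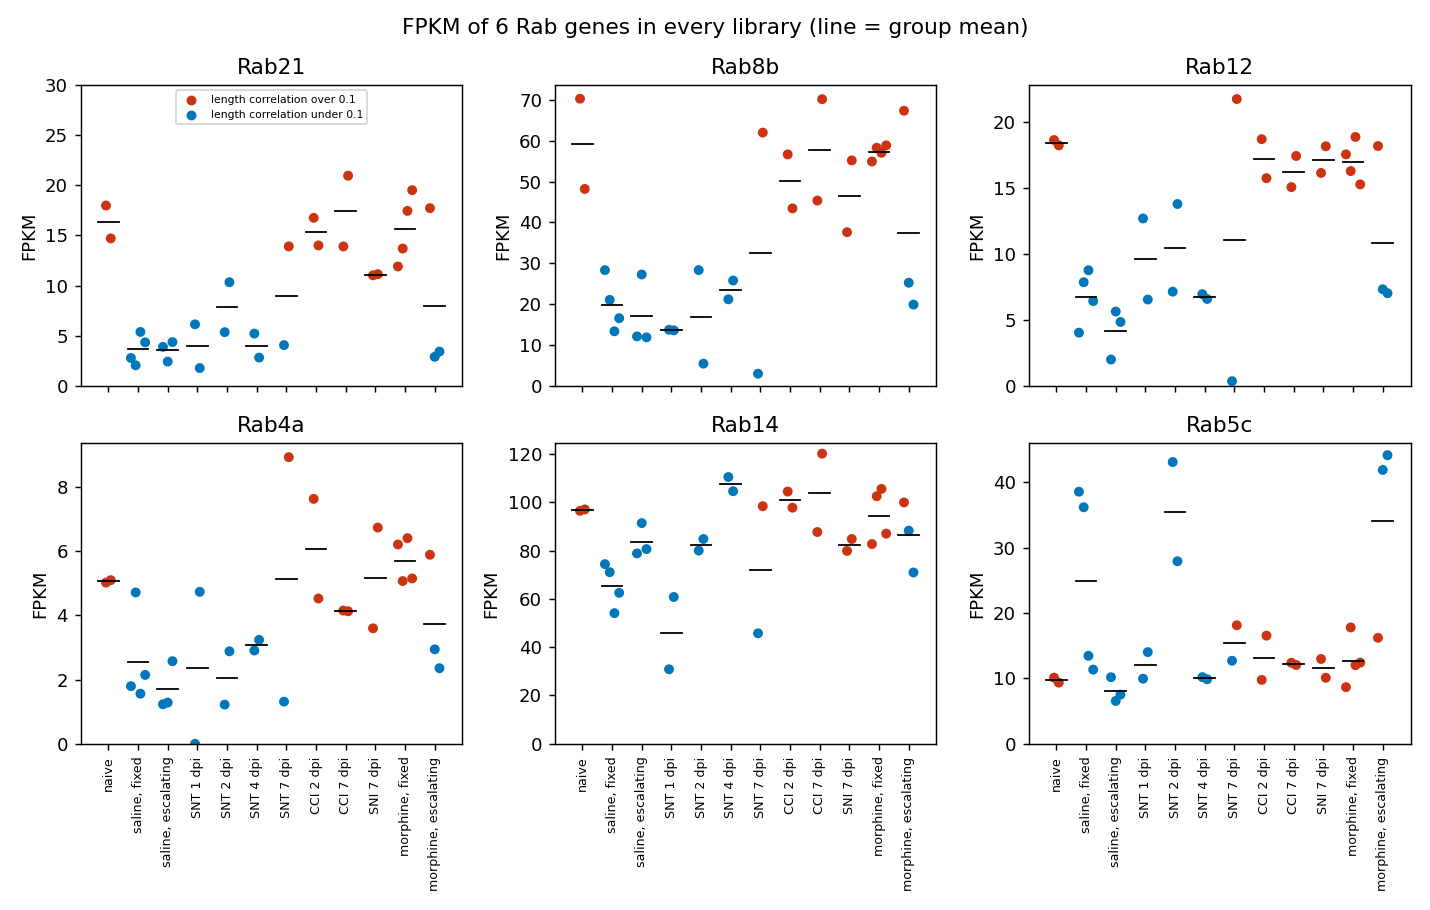
FPKM of Rab21, Rab8b, Rab12, Rab4a, Rab14 and Rab5c in every library by group, lines for group means, red for the 14 libraries with a length correlation over 0.1 and blue for the other 16. For Rab21, Rab8b and Rab12 every red point lies above every blue one (for Rab21 the lowest red is 11.02 and the highest blue 10.3 FPKM), and Rab5c is high in 6 blue libraries.

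**Figure D3:**
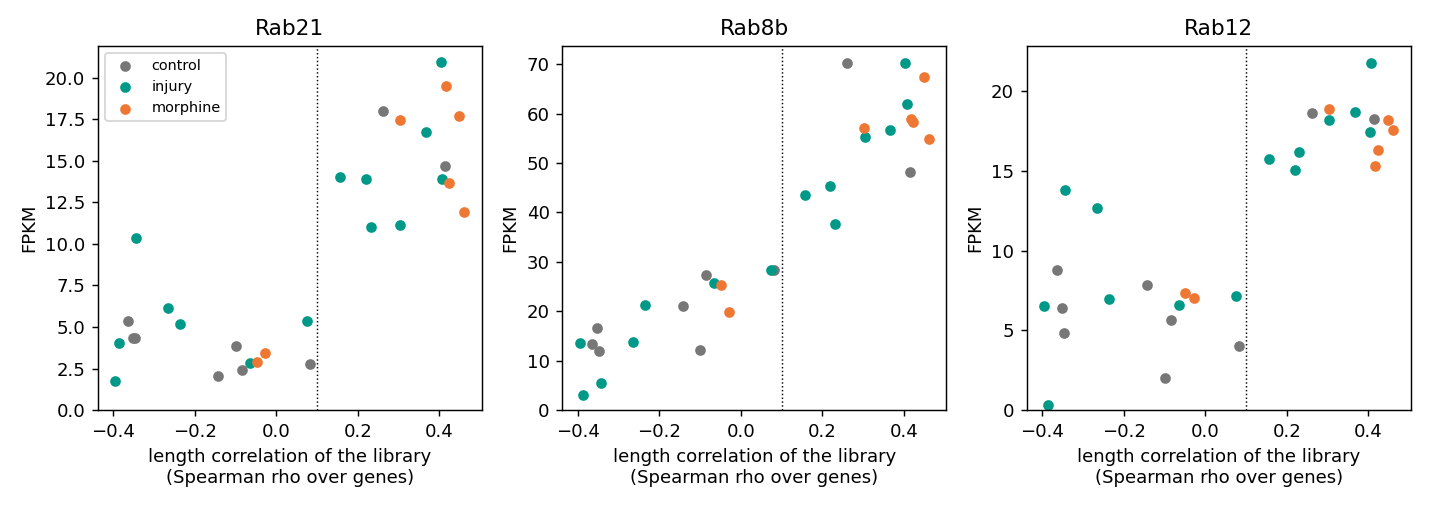
FPKM of Rab21, Rab8b and Rab12 (vertical axes) against the length correlation of each library (horizontal axes), 1 point per library coloured by control, injury or morphine, with a dotted line at 0.1. Points right of the line are the 14 libraries, and controls and morphine libraries appear on both sides.

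The called members differed in transcript length. The longest coding transcript was 4602 bases for Rab21 and 4733 bases for Rab8b, beside a median of 2820 bases over the 45 tested members with a gene model. Rab14 had 3081 bases, Rab12 2069 bases, Rab4a 1419 bases and Rab42 761 bases, the shortest of the 45. Over these 45 members, Spearman's rho of the fixed morphine difference with length was 0.41, beside 0.47 over 11318 genes. Of markers, 4 of 12 microglial genes were called, 1 higher and 3 lower, and their summed level was 11639 to 14889 FPKM under fixed morphine and 17106 to 20590 FPKM in fixed saline. Of 12 tested neutrophil markers 2 were called lower, with sums of 1845 to 18972 and 7400 to 28931 FPKM, and no neutrophil marker was at 0 in all libraries. Of 8 border macrophage, 3 B cell and 2 endothelial or mural markers 1 each was called lower. No marker was called of 11 for monocytes (median difference -0.44), 2 for T and NK cells and 1 for red blood cells. None was called of 11 for neurons (11 positive, median 0.50), 10 for oligodendrocytes (9 positive, 0.32) or 8 for astrocytes (7 positive, 0.70). The part of these differences in the Rab values was not tested, and in bulk RNA fewer cells of a type and less RNA per cell cannot be told apart.

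Escalating morphine against escalating saline gave 0 called members by limma, with 0.0340% of all genes called and 9 members (19.6%) at an unadjusted p under 0.05, beside 19.2% of all genes. The lowest adjusted p was that of Rab5c, at 16.2, 41.9 and 44.1 FPKM under morphine and 10.2, 6.55 and 7.52 FPKM in saline. All morphine values were above all saline values, with replicates 2 and 3 far above, and the difference was 1.84 ± 0.47 (limma adjusted p = 0.0987). Rab35, of endosomal recycling, was at 9.82, 13.8 and 15.2 FPKM under morphine and 4.52, 9.64 and 4.14 FPKM in saline, with limma adjusted p = 0.104. It was the 1 member called when saline replicate 8 was left out, with 3.95% of all genes called. Rab11a was at 50.8, 55.0 and 51.5 FPKM under morphine and 66.6, 92.1 and 77.5 FPKM in saline, a difference of -0.57 ± 0.18 (limma adjusted p = 0.132).

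Of the 6 members called under the fixed regimen, 5 had their highest escalating morphine value in replicate 1 and Rab42 its lowest. Rab21 was at 17.7 FPKM in escalating morphine replicate 1 and at 2.90 and 3.42 FPKM in replicates 2 and 3. Rab8b was at 67.3, 25.3 and 19.9 FPKM and Rab12 at 18.2, 7.32 and 7.03 FPKM in the same order. Replicate 1 was the escalating library among the 14. Rab4a, at 5.89, 2.94 and 2.35 FPKM, and Rab14, at 99.9, 88.2 and 70.9 FPKM, overlapped escalating saline. Rab42 was at 1.13, 1.54 and 1.70 FPKM, above the 0.546, 0.154 and 0.482 FPKM of escalating saline, a difference of 0.82 ± 0.30 (limma adjusted p = 0.173) whose sign was opposite to that under the fixed regimen.

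The difference between the regimens' responses, tested as an interaction, gave 0 called members (0.00850% of all genes), with 4 (8.70%) at an unadjusted p under 0.05, beside 11.7% of all genes. The lowest adjusted p, 0.221 by limma, was shared by Rab5c (-2.61 ± 0.62) and Rab42 (-1.66 ± 0.39). For Rab21 the interaction was 1.26 ± 0.65 (limma adjusted p = 0.463). Without escalating morphine replicate 1, 3 of 46 members were called, Rab21, Rab42 and Rab5c, with 3.73% of all genes called.

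**Figure D4:**
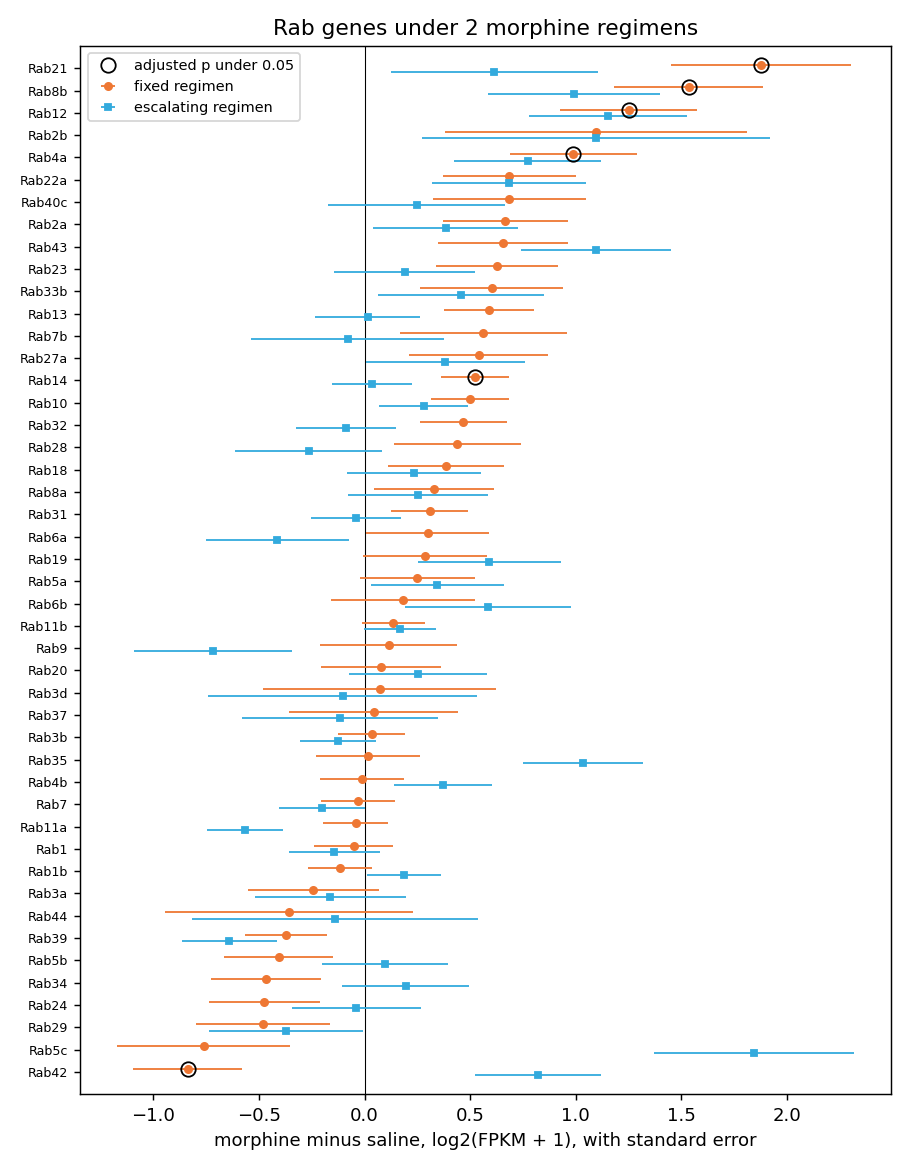
Difference of morphine from saline on the log2(FPKM + 1) scale (horizontal axis) for the 46 tested Rab genes, circles for the fixed and squares for the escalating regimen, bars for the standard error, black rings for adjusted p under 0.05. The 6 ringed points are all in the fixed regimen, and Rab5c is at 1.84 in the escalating regimen.

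Rab5c, which with its paralogs drives fusion of early endosomes, had 2 separate ranges across the series. It was at 27.9 to 44.1 FPKM in 6 libraries and at 6.55 to 18.1 FPKM in the other 24. The 6 were fixed saline replicates 3 and 4, SNT at 2 days replicates 1 and 2 and escalating morphine replicates 2 and 3. The values of the paralog Rab5a in the 6 libraries were 17.8, 24.4, 34.0, 9.46, 27.0 and 20.6 FPKM, within its range elsewhere of 10.8 to 45.4 FPKM except for the 9.46. Of 11759 tested genes, 8 were higher in all 6 of these libraries than in all others. These were Rab5c itself, Actb, Cd151, Gm20594, Hebp1, Npm3, Wasf2 and Zc3h7b. Polr3k was lower in all 6. Actb, the cytoskeletal actin gene, was at 4791 to 5709 FPKM in the 6 and 769 to 3887 FPKM in the 24.

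The 3 kinds of control, which the injury comparisons pool, gave 0 called members in limma's F-test (0.102% of all genes), with 7 (15.2%) at an unadjusted p under 0.05, beside 13.5% of all genes. Rab21 had the lowest adjusted p, 0.126 by limma, with the naive libraries at 18.0 and 14.7 FPKM and all 7 saline libraries at 2.05 to 5.38 FPKM. Rab5c followed at a limma adjusted p of 0.162. Rab12, Rab21 and Rab8b were called when the 3 libraries with the fewest detected genes, none of them a control, were left out of the fit that sets the spread, where 5.86% of all genes were called.

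After nerve injury no member was called by limma in any of the 7 groups against the 9 controls, which all 7 comparisons share. The shares of all genes called were also small: 0.0170% for SNT at 1 day, 0% at 2 days, 0% at 4 days, 0.204% at 7 days, 0.00850% for CCI at 2 days, 0% at 7 days and 0% for SNI. Members at an unadjusted p under 0.05 numbered 8, 6, 2 and 2 for SNT at 1, 2, 4 and 7 days, 1 for CCI at each day and 0 for SNI. The shares of all genes at that level were 16.1%, 7.33%, 2.34% and 8.88% for SNT at 1, 2, 4 and 7 days, 10.7% and 9.75% for CCI at 2 and 7 days and 4.06% for SNI. Median differences of the 46 followed those of all genes, at -0.37 beside -0.25 for SNT at 1 day and -0.26 beside -0.23 at 2 days. They were -0.01 beside 0.03 at 4 days and 0.05 beside 0.03 at 7 days. For CCI they were 0.12 beside 0.17 at 2 days and 0.17 beside 0.17 at 7 days, and for SNI 0.01 beside 0.01. In simulated data, the test of CCI at 7 days called 6% of made changes of 1 log2 unit and 68% of those of 2. Those changes were made only in genes above the low range, and the simulated libraries shared no length trend. An absent call therefore does not show that a gene was unchanged.

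After SNT at 1 day, Rab3d had the lowest adjusted p. It was listed at 0 in replicate 1 and was at 3.28 FPKM in replicate 2, below the 3.33 to 13.8 FPKM of the controls (limma adjusted p = 0.138). In the same comparison all 12 neutrophil markers (median -1.999) and all 11 monocyte markers (median -2.37) had negative differences, with 0 called; neutrophil sums were 2034 and 13544 FPKM, beside 5704 to 63215 FPKM in the controls. Their part in the Rab3d values was not tested. Rab34, a Golgi-associated Rab of lysosome positioning, was above all controls, at a mean of 15.4 ± 7.75 FPKM against 6.85 ± 2.01 FPKM (limma adjusted p = 0.207; n = 2 and 9). Without replicate 2 of SNT at 1 day, 4 of 46 members were called, Rab14, Rab34, Rab3b and Rab3d, with 10.4% of all genes called. At 2 days Rab3d was again below all controls (limma adjusted p = 0.670), with all 12 neutrophil markers negative (median -1.31) and sums of 3311 and 20979 FPKM,, and without replicate 1 Rab3d and Rab7 were called, with 9.72% of all genes. At 7 days Rab39 was at 0 and 6.60 FPKM against 6.30 to 16.1 FPKM in controls (limma adjusted p = 0.166). Without SNT replicate 2 at 7 days, 4 of 46 members were called, Rab10, Rab12, Rab39 and Rab8b, with 8.56% of all genes called. The replicates at 7 days stood far apart, with Rab8b at 2.97 and 62.0 FPKM, Rab12 at 0.355 and 21.8 FPKM and Rab10 at 5.91 and 55.7 FPKM. Replicate 2, the high library for all 3, was among the 14.

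Among the 4 SNT days 0 members were called by limma's F-test (0.00850% of all genes), with 5 (10.9%) at an unadjusted p under 0.05, beside 11.5% of all genes. Rab7 was at 67.4 and 70.4 FPKM at 1 day, 100 and 31.6 FPKM at 2 days, 147 and 132 FPKM at 4 days and 156 and 98.6 FPKM at 7 days (limma adjusted p = 0.365). Both 4-day libraries lay above the control range of 66.1 to 125 FPKM. Rab20, a phagosomal Rab, was at 15.1 and 19.2 FPKM at 1 day and 23.4 and 14.4 FPKM at 7 days, with controls at 6.96 to 19.98 FPKM.

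After CCI, Rab21 had the lowest p at both days, at 16.7 and 14.001 FPKM at 2 days and 13.9 and 21.0 FPKM at 7 days. These overlapped the controls, which spanned 2.05 to 18.0 FPKM, and the limma adjusted p was 0.422 at 2 days and 0.347 at 7 days. This result differed with the choice of control. The kind of control, the number of controls and the division of libraries by length trend cannot be told apart here. Against the 7 saline controls alone, chosen after seeing the data, Rab21 was the 1 member called at 2 days (1.87 ± 0.45, limma adjusted p = 0.0353) and at 7 days (2.02 ± 0.45, limma adjusted p = 0.0263), with 1.72% and 1.96% of all genes called. Against the 2 naive controls alone the differences were -0.08 ± 0.59 and 0.07 ± 0.59, and no member was called. After SNI, Rab21 was at 11.02 and 11.1 FPKM, 1.00 ± 0.58 from the 9 controls (limma adjusted p = 0.999). All CCI and SNI libraries and both naive ones were among the 14 libraries, and the saline ones among the 16.

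The other members read in every injury comparison stayed within 1 log2 unit of the controls except Rab5c at 1.34 ± 0.49 for SNT at 2 days, where both libraries belonged to its 6 high ones. Rab1 differed by -0.35 to 0.40 over the 7 groups and Rab11a by -0.24 to 0.54. Rab5a differed by -0.39 to 0.53 and Rab7 by -0.80 to 0.49. Rab31 ranged from -0.51 to 0.32, Rab32 from -0.68 to 0.56 and Rab10 from -0.83 to 0.47. Rab27a ranged from -0.96 to 0.37, Rab20 from -0.64 to 0.80, Rab3a from -0.93 to 0.68 and Rab7b from -0.82 to 0.61. None of these passed the test.

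**Figure D5:**
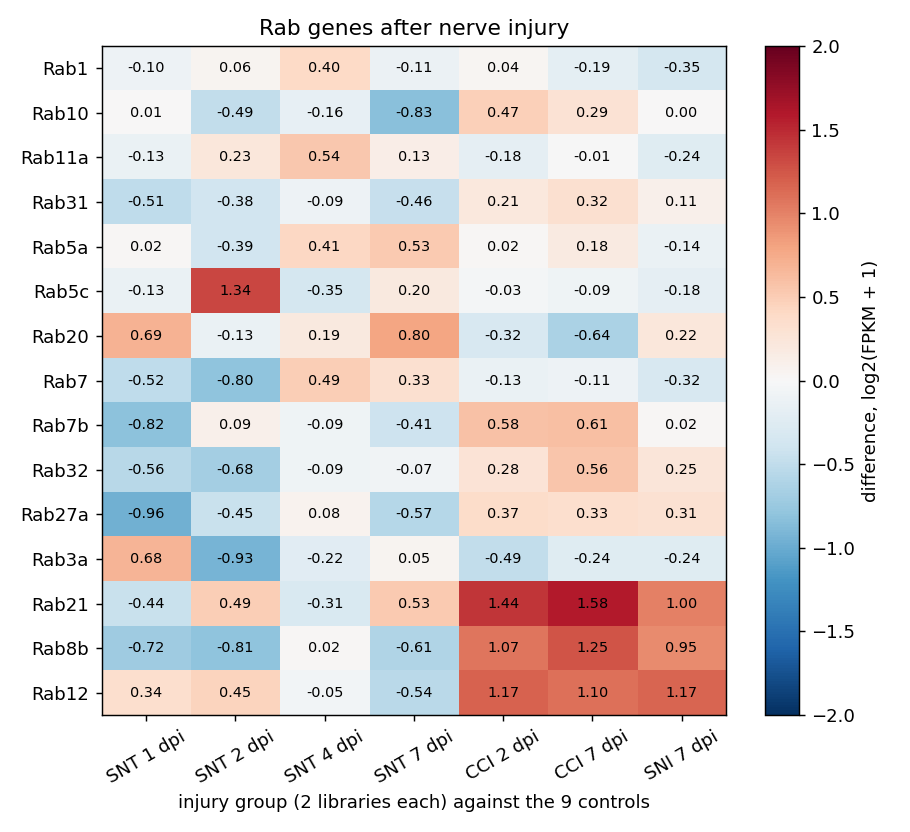
Differences from the 9 controls on the log2(FPKM + 1) scale, as colour and number, for 15 Rab genes (rows) in the 7 injury groups of 2 libraries each (columns). Rab21, Rab8b and Rab12 are positive for CCI and SNI, such as 1.58 for Rab21 in CCI at 7 days, and none of the values passed the test.

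Rabs of regulated secretion varied between single libraries. Rab3d was at 12.5 and 13.8 FPKM in fixed saline replicates 3 and 6, 15.8 FPKM in fixed morphine replicate 4 and 17.4 FPKM in escalating morphine replicate 1. In the other libraries it was at 9.37 FPKM or less. Rab44, a granule-associated large Rab, was at 5.43, 4.26, 8.19 and 7.60 FPKM in the same 4 libraries and at most 3.73 FPKM elsewhere. The summed neutrophil markers in these 4 were 15256, 27732, 18972 and 13796 FPKM, beside a median of 7381 FPKM over all 30. The highest sum, 63215 FPKM in escalating saline replicate 9, went with 5.91 FPKM of Rab3d and 3.73 FPKM of Rab44, and fixed saline replicate 5, with a sum of 28931 FPKM, had 4.09 FPKM of Rab3d and 2.24 FPKM of Rab44. The part of other cell types in these values was not tested.

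Genes that regulate Rabs or act as their effectors passed the test in 1 of the 12 comparisons. In fixed morphine against fixed saline, 17 of 55 tested effector genes were called, all higher, with a median difference over the 55 of 0.55. Of 46 GEF genes 11 were called higher and 3 lower (median 0.44), and of 35 GAP genes 6 higher and 2 lower (median 0.39). Of 9 genes for prenylation and membrane recycling 1 was called higher and 1 lower (median 0.07). The median over all tested genes was 0.22, and 13.6% of all genes were called higher and 4.46% lower. No gene of these lists was called in the other 11 comparisons. Under escalating morphine the effector list had a median difference of 0.54, with 47 of 55 positive and 21 at an unadjusted p under 0.05 in limma. The GEF list had a median of 0.49 there, with 37 of 46 positive and 16 at that level, and the GAP list one of 0.28, with 28 of 35 positive and 6 at that level, beside 19.2% of all genes at that level and a median of 0.16 over all tested genes. In the fixed comparison the lists were compared across the same division of libraries, so the same limit applies. In the escalating comparison, morphine replicate 1 was among the 14 libraries and all saline libraries were among the 16. Over 11318 genes, Spearman's rho of the escalating difference with transcript length was 0.36, beside 0.47 for the fixed one. The part of the length trend in the escalating list differences was not tested.

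Among GEFs, Dennd5a, which activates Rab39, was at 41.7 ± 2.68 FPKM under fixed morphine and 10.2 ± 2.86 FPKM in fixed saline (SD, n = 4 each; 1.96 ± 0.35, limma adjusted p = 0.00606). Trappc8 and Trappc10, subunits of TRAPP tethering complexes that activate Rab1 and Rab11, differed by 1.67 ± 0.33 and 1.61 ± 0.34. Rgp1, which with Ric1 activates Rab6, was listed at 0 in all 4 morphine libraries and at 3.83 to 5.79 FPKM in saline. Its partner Ric1 went the other way, at 1.51 to 1.84 FPKM under morphine and 0.148 to 0.888 FPKM in saline (0.87 ± 0.22, limma adjusted p = 0.0204). Among GAPs, Tbc1d10b and Tbc1d2b differed by 1.91 ± 0.45 and 1.90 ± 0.46, and Tbc1d1 by 1.45 ± 0.35. Tbc1d13 was lower, at 0.601 to 0.806 FPKM against 5.27 to 9.50 FPKM.

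Among effectors, Plekhm2, which links lysosomes to kinesin, differed by 1.88 ± 0.35 and the Rab1 effector and tether Uso1 by 1.78 ± 0.31. The endosomal kinesin Kif16b differed by 1.38 ± 0.32. Kif20a, a mitotic kinesin that binds Rab6, differed by 2.71 ± 0.87 with overlapping groups, at 0 to 33.01 FPKM under morphine and 0 to 2.91 FPKM in saline. Gdi2, which extracts inactive Rabs from membranes, was at 280 ± 29.6 FPKM under morphine and 156 ± 45.8 FPKM in saline (SD, n = 4 each; 0.88 ± 0.21, limma adjusted p = 0.0156). Rabac1, a prenylated Rab acceptor, went the other way, at 79.9 ± 6.36 and 211 ± 34.7 FPKM (-1.38 ± 0.21, limma adjusted p = 0.00499).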

How the data were processed

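Per the labels' protocols, mice were perfused, and cells freed of myelin were selected for CD11b with magnetic beads before Smart-Seq2 libraries were prepared. The authors deposited 1 table of FPKM values with a column per library; per the submitters' processing notes the build was mm10 and HISAT2 2.0.5.1, Cufflinks 2.2.1, featureCounts 1.4.6 and DESeq2 were used, and which of them made the FPKM values and from which annotation is not given in the sources used here. Repeated symbols (281, on 826 rows) were dropped. Values were taken as log2(FPKM + 1) with no further scaling, for genes with at least 1 FPKM in at least 2 libraries, and tested in limma 3.58.1 (R 4.3.3) with an intensity trend, two-sided, adjusted over all 11759 genes. Injury groups were compared with 9 pooled controls in a fit of 23 libraries, morphine groups with their saline groups in a fit of 14, and the kinds of control in a fit of all 30. The code was tested on simulated data, with 100 genes changed by 1 log2 unit and 100 by 2. It called 34% and 90% of these for fixed morphine against fixed saline. For CCI at 7 days against controls it called 6% and 68%. Only genes well above the filter were changed, and noise was drawn separately for each gene and library. These shares therefore do not cover low members or a length trend shared by genes. Gene models came from GENCODE on mm10, where 58 of 59 members matched, and promoters from RefSeq. Transcript length is that of a gene's longest coding transcript.

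Members, gene lists and comparisons were chosen with earlier results of these data known. Members were named if called, if among the 3 lowest p where under 3 were called, if among the 10 highest medians or the 5 largest or smallest standard deviations, or if on a list of 12 read throughout; in pathway lists at most 4 called genes were named. Rab44, Rab5b, member pairs and the genes beside Rab5c were singled out after their values were seen. So was Ric1, named beyond that limit as the partner of Rgp1. The alternatives were another pseudocount (0.1), filter and scaling, library weights, a replicate block, other controls and leaving out libraries.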

Additional observations from a re-analysis of the deposited data

Results flagged for a closer look

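In 3 of 54 sets of 4 or 9 libraries examined (18 members in fixed saline, fixed morphine and the pooled controls), 1 library stood apart from the rest by a gap larger than Dixon's 95% limit, a rate that chance alone gives in about 1 in 20 sets. Rab42 was at 3.39 FPKM in fixed saline replicate 4, with the next of the 9 controls at 1.74 FPKM. Rab20 was at 19.98 FPKM in fixed saline replicate 6, with the next control at 13.5 FPKM. Rab1 was at 78.9 FPKM in escalating saline replicate 8, with the next control at 59.0 FPKM.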

How the results depend on the processing

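Fixed morphine against fixed saline gave 6 called members. It gave 4 to 7 under another pseudocount, either filter, quantile or median-ratio scaling, the replicate block and removal of the length trend, but 12 with a common sum, which moved the median of all genes to 0.53 from 0.22, and 13 with library weights, whose estimation stopped before convergence in 2 of 3 fits. With the length trend removed, 753 of 1397 calls over all genes were higher, beside 1595 of 2119. Leaving out 1 library gave 2 to 5. With naive libraries in place of saline, in a fit of all 30 libraries, it was 0. The differences of Rab12 (-0.12), Rab14 (-0.042), Rab21 (-0.077) and Rab8b (-0.024) reversed in sign there. Library weights gave 1 for CCI at 7 days, 3 for the interaction and 5 for the kinds of control. Leaving out the 3 libraries with fewest genes gave 3 for the kinds of control, with 5.86% of all genes called. The shares of all genes called are not given here for library weights, nor for the SNT days with 1 library left out. Those counts, like the 12 and the 13, are not a result about the Rab genes. With a common sum the calls over all genes rose as well, as given above. The causes were not tested. Saline controls alone gave 1 for CCI at 2 days and 1 at 7 days. Leaving out 1 library gave 0 to 4 for SNT at 1 day, 0 to 2 at 2 days, 0 to 4 at 7 days, 0 to 2 among the SNT days, 0 to 1 for escalating morphine and 0 to 3 for the interaction; where it left 1 library in a group, that library was assumed to vary like the other groups. It gave 0 for SNT at 4 days, both CCI groups, SNI and the kinds of control. With the replicate number as a block, 5 members were called in fixed morphine and 0 elsewhere. The 93 correlations between deviations of same-numbered libraries ran from -0.64 to 0.39, with a median of -0.00011. Where 2 groups share 2 numbers, both numbers give the same value, so fewer than 93 are distinct. Escalating morphine shares no number with its saline group. Whether the numbers pair the samples cannot be told from these values. Depth is unknown, which limits what the low members can show.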
